A study of Mus musculus with 19 samples.

Results

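Mitosis genes were followed across 3 stages of lymphoid progenitors from mouse bone marrow. The set was a list of 42 genes for mitotic kinases, cyclins, spindle, kinetochore, checkpoint and chromosome proteins. The list was taken as given and had been chosen with earlier results of these data known. All 42 genes were rows of the deposited table of 18607 genes. They fell into 8 role groups of 3 to 8 genes.

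Cells enter mitosis when the kinase Cdk1, bound to a cyclin B, is switched on by Cdc25 phosphatases. Polo and Aurora kinases then build the spindle, kinetochores tie chromosomes to its microtubules, and the spindle checkpoint holds back the anaphase promoting complex until every chromosome is attached. Transcripts of most of these genes build up late in the cell cycle and are low in resting cells, so their level in a sorted population is widely read as a sign of how many cells divide. Progenitors of lymphocytes alternate between dividing and resting phases as they mature.

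RNA-seq libraries came from sorted bone marrow cells of C57BL/6 mice, grouped by label into ALP (7 libraries), EILP (7) and ILCp (5). The design text calls ALP common lymphoid progenitors and EILP and ILCp early progenitors of innate lymphoid cells (ILC), lymphocytes without rearranged antigen receptors. ALP were sorted as lineage-low, Ly-6D-low cells with Kit, IL-7Ra and high Flt3. EILP were Kit-positive cells with high GFP, low CD122 and Thy-1.2 and less IL-7Ra. ILCp were Kit-positive cells with high GFP, low CD122, Thy-1.2, a4b7 integrin and high IL-7Ra. All ALP and EILP and ILCp 1 to 3 carried Tcf7EGFP/+, in which the GFP gate reports Tcf7. ILCp 4 and ILCp 5 carried Plzf-cre-GFP/+, in which GFP reports another gene, so the ILCp group mixes 2 reporters. The sources used here give neither the ages of the mice nor whether each library came from its own mice, and a p-value therefore measures the spread between these libraries, which may be technical.

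The labels put the libraries in 5 batches: batch 3 held EILP 3 and EILP 4 alone, batch 5 held no ILCp, and ILCp 3 to 5 were all in batch 4. Levels are log2 CPM as deposited (CPM is a read count scaled to a fixed library total), and read depth is unknown. By their values, batch differences had been removed before deposit. Within a batch, departures of the libraries from their group means therefore offset each other. The level of a single library thus also depends on the other libraries of its batch, wherever it is set against libraries of other batches. Of the transcripts behind the gates, Kit was at 7.75 to 9.28 log2 CPM in all libraries and Flt3 at 9.50 to 11.31 in ALP. Tcf7 was at 8.47 to 13.07 in EILP and 8.95 to 9.56 in ILCp, against −2.66 to 3.59 in ALP, and Thy1 at 4.60 to 6.65 in ILCp, against −1.39 to 1.16 in EILP. Il2rb, the CD122 transcript, was at 5.43 to 9.50 in EILP and 6.11 to 7.61 in ILCp, which were sorted as CD122-low. Il7r followed the gates, with means of 7.46 in ALP, 5.34 in EILP and 9.93 in ILCp. Mean Ly6d was highest in ALP, sorted as Ly-6D-low, at 5.67 against 1.10 in EILP and 1.20 in ILCp. The a4b7 transcripts Itga4 and Itgb7 did not set ILCp apart from EILP. Their means were 7.27 and 6.54 in ALP, 9.38 and 9.04 in EILP, and 8.76 and 9.19 in ILCp. Levels were not scaled by gene length, so they are compared between libraries and never between genes. In bulk RNA, fewer dividing cells and less of a transcript per cell cannot be told apart.

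Promoters of 7 members are shown because the members moved largely together, and because promoters of mitosis genes are known for CCAAT boxes and for the cell cycle homology region, the element through which the DREAM repressor complex and its activating counterparts reach them. Of the 42 members, 35 had a promoter entry in RefSeq (build GRCm38.p6). Ccna2, Cdc25c, Aurkb, Incenp, Kif20a, Tpx2 and Smc4 had none. The sequences run 5′ to 3′ toward the start site, at most 150 bases long and without annotated exons. Those of Cdk1, Cdc20 and Ube2c stop 26, 9 and 31 bases short of the start site, where annotated exons were cut off. Capitals mark CCAAT (or ATTGG on the other strand) and the homology region cores TTTGAA (or TTCAAA) and TTCGAA, which is its own reverse complement. No marked stretch overlaps another.
Cdk1, chr10:69352939-69353062, minus strand: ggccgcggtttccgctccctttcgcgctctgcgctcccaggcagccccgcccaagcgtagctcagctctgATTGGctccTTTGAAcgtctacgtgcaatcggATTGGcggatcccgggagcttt
Ccnb2, chr9:70421555-70421704, minus strand: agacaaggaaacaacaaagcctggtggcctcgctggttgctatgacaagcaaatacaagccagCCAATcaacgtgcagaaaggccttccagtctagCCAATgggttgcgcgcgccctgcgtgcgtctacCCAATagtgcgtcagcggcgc
Cdc20, chr4:118437353-118437493, minus strand: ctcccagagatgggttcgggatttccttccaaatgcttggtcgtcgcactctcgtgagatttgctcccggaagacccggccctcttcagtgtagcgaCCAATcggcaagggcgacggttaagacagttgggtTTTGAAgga
Ube2c, chr2:164769779-164769897, plus strand: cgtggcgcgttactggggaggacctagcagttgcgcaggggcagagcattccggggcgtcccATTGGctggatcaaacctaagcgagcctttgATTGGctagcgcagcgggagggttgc
Bub1b, chr2:118598061-118598210, plus strand: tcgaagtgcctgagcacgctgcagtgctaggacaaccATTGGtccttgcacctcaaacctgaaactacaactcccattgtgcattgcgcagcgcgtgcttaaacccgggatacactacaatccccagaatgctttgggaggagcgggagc
Top2a, chr11:99024190-99024339, minus strand: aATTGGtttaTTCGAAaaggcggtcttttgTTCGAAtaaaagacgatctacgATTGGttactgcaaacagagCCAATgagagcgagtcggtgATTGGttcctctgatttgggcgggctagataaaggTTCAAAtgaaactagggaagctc
Mki67, chr7:135716380-135716529, minus strand: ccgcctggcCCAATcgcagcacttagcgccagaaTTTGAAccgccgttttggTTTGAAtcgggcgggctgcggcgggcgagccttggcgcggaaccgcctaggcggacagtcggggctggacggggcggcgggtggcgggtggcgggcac

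In the printed stretch of Cdk1, a core lay between a pair of ATTGG boxes, and that of Cdc20 had 1 CCAAT and 1 core. Top2a had the most marked letters of the 7, with 4 CCAAT boxes, 1 TTCAAA and 2 TTCGAA. In their printed stretches, Ccnb2 had 3 CCAAT boxes and no core, Ube2c had 2 and no core, Bub1b had 1 and no core, and Mki67 had 1 with 2 TTTGAA. Outside these stretches but within 250 bases, Ccnb2 and Ube2c had a TTTGAA at −167 and −29 and Bub1b a TTCGAA at −188. Over the 250 bases before the start site, searched on both strands, 27 of the 35 members (77.1%) held CCAAT, against 37.5% of all 27025 genes with such a window and 40.0% of the genes of the deposited table that had one. At least 2 CCAAT were found in 16 members (45.7%), against 11.5% of all genes. TTTGAA was found in 13 members (37.1%), against 18.3% of all genes, and TTCGAA in 2 (5.71%), against 1.55%. Either homology region core was found in 14 members (40.0%), against 19.6%, and both CCAAT and a core in 13 (37.1%), against 7.0%. A match is a description of letters and not evidence that a factor binds there.

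From ALP to EILP, the mitosis genes were lower almost throughout. With limma and a Benjamini-Hochberg adjusted p below 0.05 over all genes, 14 of 42 fell in EILP and 0 rose (33.3% of the members), against 2.79% of all 18607 genes lower and 2.25% higher. The difference was below 0 in 41 of 42 genes, with a median of −0.79 on the log2 scale, against a median of 0 over all genes. The exception was Cenpe. Unadjusted p was below 0.05 with a negative difference in 32 members (8.83% of all genes) and with a positive one in 0 (8.63%). In 14 members every EILP library was below every ALP library (2.38% of all genes), in 0 every one was above (2.36%), and 10 of those 14 were also called. Cdk1, Ccnb2, Incenp, Bub1b, Cdc20, Nusap1, Prc1, Ect2, Smc4 and Ncapg were both, while Ccna2, Ttk, Mad2l1 and Racgap1 missed the adjusted threshold. EILP 3 and EILP 4, alone in batch 3, were centred on the EILP mean by the batch removal (Cdk1 at 7.01 and 7.15, EILP mean 7.08). The place of their mean against ALP follows from the other libraries, so they are not fully separate observations in the non-overlap counts. After median centring of the libraries, which moved the median of all genes from 0 to 0.22, 5 members fell, their median was −0.58, and Espl1 was above 0 as well. The library medians used lay at 2.13 to 3 log2 CPM. Without centring, the 8156 genes within the members' range of mean level had a median difference of 0.008. The count of members that fell was also 5 without batch 4, and 0 in batch 5 alone, where 2 EILP libraries stood against 3 ALP libraries. The share of all genes that fell in these fits and after centring is not given here. These counts therefore cannot separate fewer calls among the members from fewer calls over all genes.

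Between EILP and ILCp, no member passed the test in either direction with limma, against 1.46% of all genes lower and 1.76% higher. At an unadjusted p below 0.05, 4 members were lower and 0 higher (9.52% of the members, against 9.28% of all genes lower and 7.37% higher), a share near that of all genes. The difference was below 0 in 24 members and above 0 in 18 (15 after median centring), with a median of −0.21 against −0.08 over all genes. In 1 member, Kif2c, every ILCp library was below every EILP library (5.34% of all genes), and in 0 every one was above (3.35%).

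From ALP to ILCp, 17 of 42 members fell and 0 rose (40.5%), against 4.39% of all genes lower and 3.86% higher. All 42 differences were below 0 (41 after median centring, with Cenpe above), with a median of −1.02 against −0.03 over all genes. Unadjusted p was below 0.05 in 33 members, all lower (11.8% of all genes lower, 9.09% higher). In 17 members every ILCp library was below every ALP library (4.96% of all genes), and in 0 every one was above (4.01%). The count of members that fell was 8 without batch 4, without the Plzf-cre-GFP libraries, or with only ALP and ILCp in the fit. For these fits, too, the share of all genes is not given. The comparisons share libraries: ALP stands in the first and the last, EILP in the first and the second, and ILCp in the second and the last, so their values are set side by side and are not independent of each other. Among the 8156 genes within the members' range of mean level, 3.64% fell in EILP versus ALP, 2.50% in ILCp versus EILP and 6.67% in ILCp versus ALP.

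**Figure D1:**
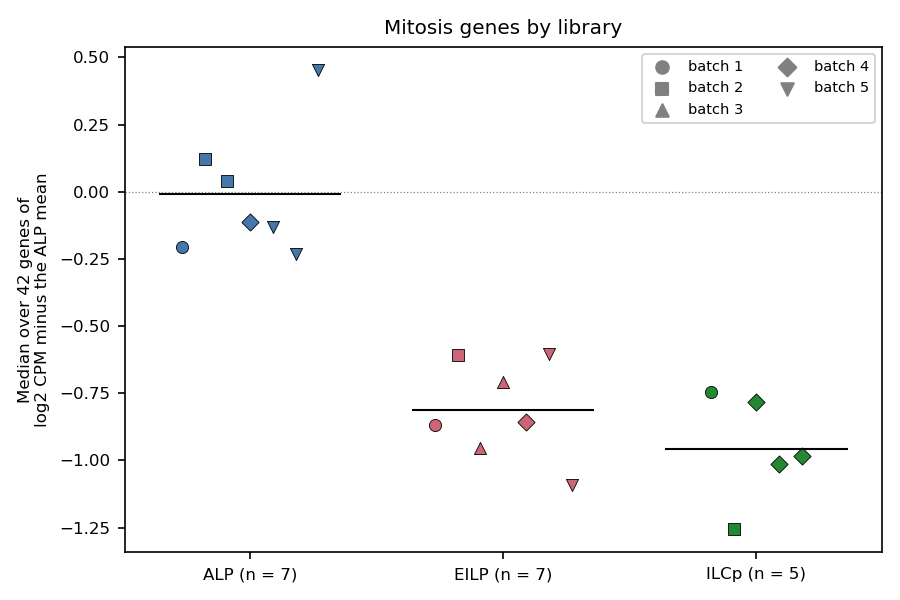
Each point is 1 library, marked by batch; the vertical axis is the median over the 42 mitosis genes of log2 CPM minus the gene's ALP mean, and lines are group means. The 7 ALP libraries lie from −0.23 to 0.45, and all EILP and ILCp libraries lie lower, from −1.26 to −0.60.

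The plot by library gives 1 value per library, the median over the members of the level minus the ALP mean. In ALP the lowest, median and highest of these were −0.23, −0.11 and 0.45, the highest being ALP 7. In EILP they were −1.09, −0.86 and −0.60, the lowest being EILP 7 and the highest EILP 6. In ILCp 1 to 5 they were −0.75, −1.26, −0.78, −1.01 and −0.98. No EILP or ILCp library reached the ALP range, while EILP and ILCp lay over each other. ILCp 4 and ILCp 5, with the Plzf-cre-GFP reporter, stood within the range of the other ILCp libraries.

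The same order was seen inside batches. For EILP minus ALP the members' median was −0.66 in batch 1, −0.76 in batch 2, −0.75 in batch 4 and −0.82 in batch 5, with 37, 38, 42 and 41 of 42 genes below 0. In all 4 batches at once 33 members were below 0, against 9.62% of all genes. For ILCp minus ALP it was −0.57 in batch 1, −1.32 in batch 2 and −0.84 in batch 4, and 30 members were below 0 in all 3 batches, against 17% of all genes. For ILCp minus EILP it was 0.08, −0.68 and −0.12 in batches 1, 2 and 4, so the batch medians did not share a direction. In all 3 of these batches 10 of 42 members were below 0, against 15.9% of all genes, and 0 were above, against 10.5%. Batch 3 held EILP only and gives no difference.

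**Figure D2:**
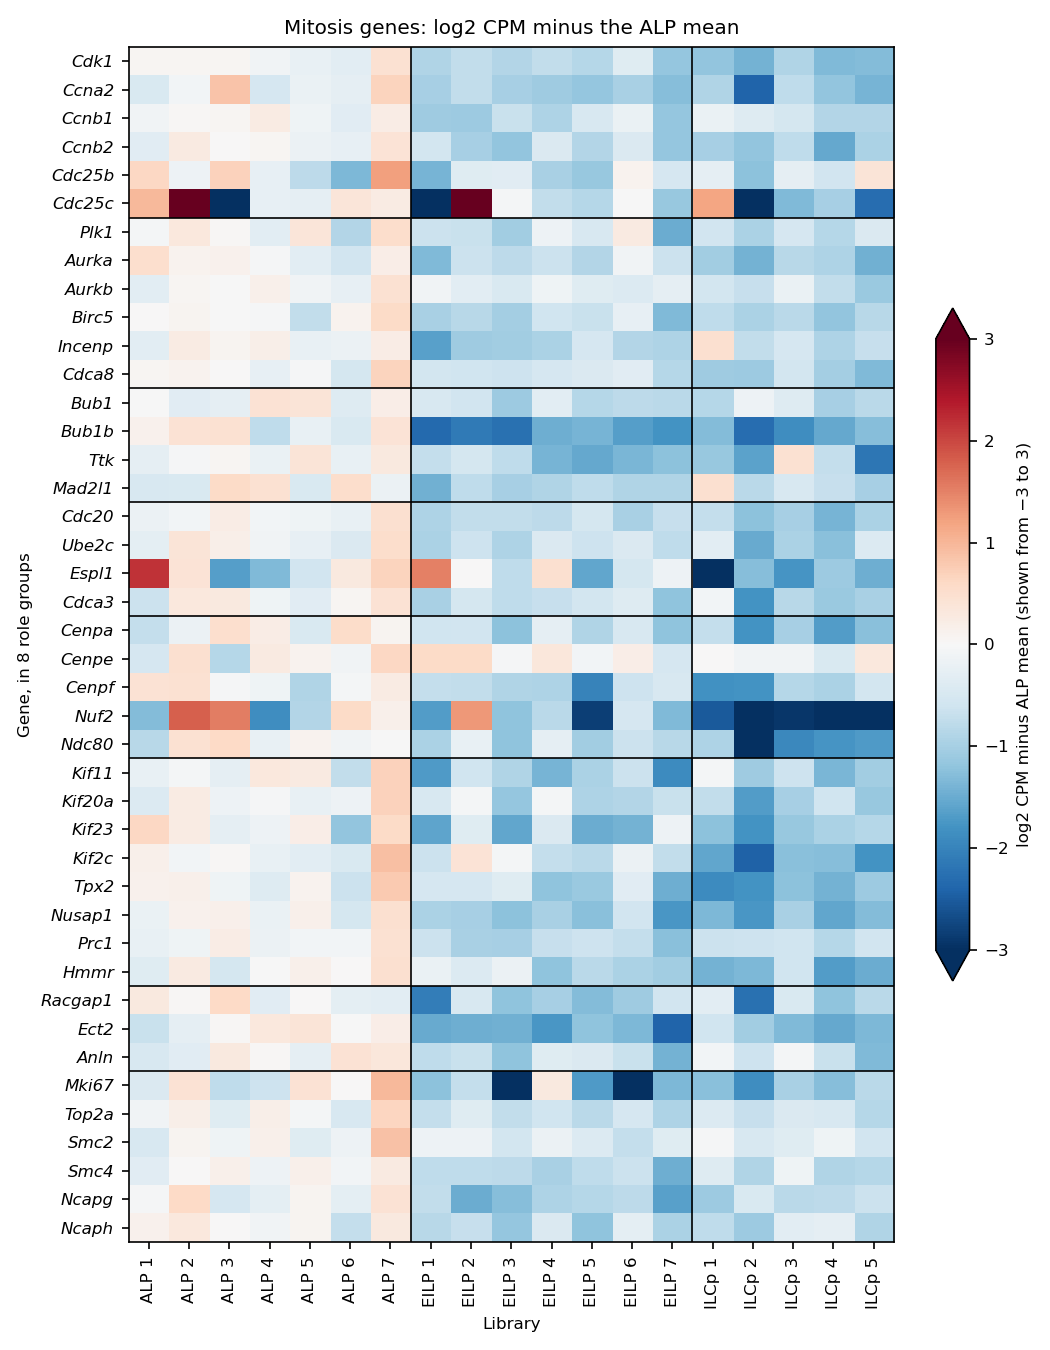
Rows are the 42 genes in their 8 role groups and columns the 19 libraries; colour is log2 CPM minus the gene's ALP mean, shown from −3 to 3. The EILP and ILCp columns are blue for most genes, with Cdc25c, Nuf2 and Espl1 varying most between libraries.

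Of Cdk1, its cyclins and the Cdc25 phosphatases, 3 of 6 fell in EILP and 3 of 6 in ILCp versus ALP. Cdk1 (chr10:69335146-69352938, minus strand, GRCm38), the kinase that drives entry into mitosis, was at 7.56, 7.93 and 8.34 log2 CPM in ALP (lowest, median, highest) and at 6.73, 7.03 and 7.52 in EILP. In ILCp 1 to 5 it was at 6.70, 6.46, 6.98, 6.56 and 6.57. Every EILP and every ILCp library was below every ALP library, and ILCp overlapped EILP. Cdk1 fell by 0.80 ± 0.16 (SE) in EILP versus ALP on the log2 scale, or 1.74-fold (limma adjusted p 0.00764). It fell by 1.22 ± 0.19 in ILCp versus ALP, or 2.34-fold (limma adjusted p 0.000602), the smallest adjusted p of any member there. The ILCp minus EILP difference was −0.43 ± 0.19 (95% interval −0.84 to −0.01, limma adjusted p 0.284).

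Ccnb2, a B-type cyclin that activates Cdk1, was at 7.25, 7.61 and 8.01 in ALP, 6.42, 6.73 and 7.16 in EILP, and 6.60, 6.41, 6.83, 6.07 and 6.65 in ILCp 1 to 5. ALP stood clear of both other groups, and Ccnb2 fell by 0.80 ± 0.20 in EILP (limma adjusted p 0.0286) and by 1.08 ± 0.23 in ILCp (limma adjusted p 0.00728) versus ALP. Ccnb1, the other B-type cyclin, fell by 0.80 ± 0.19 in EILP (limma adjusted p 0.0207) but was at −0.57 ± 0.22 in ILCp versus ALP (limma adjusted p 0.132), with levels of 7.99 and 7.80 in ILCp 1 and ILCp 2 against 7.85 in the lowest ALP library. Ccna2, the cyclin A of S phase and early mitosis, did not pass in EILP (−1.03 ± 0.29, limma adjusted p 0.0561) and fell by 1.33 ± 0.34 in ILCp (limma adjusted p 0.0211). The Cdc25 phosphatases, which remove the inhibitory phosphates of Cdk1, did not pass in any comparison. Cdc25b was at −0.66 ± 0.45 in EILP and −0.40 ± 0.51 in ILCp versus ALP, with intervals from −1.61 to 0.29 and −1.48 to 0.69. Cdc25c was too uneven to rank: ALP ran from −1.63 to 8.13 and EILP from −0.55 to 8.13, and ALP 3 and ILCp 2, both of batch 2, shared the level of −1.63, the lowest of their batch.

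Of the Polo and Aurora kinases and the chromosomal passenger complex, 2 of 6 fell in EILP and 4 of 6 in ILCp versus ALP. Incenp, the scaffold of the passenger complex, was at 6.95, 7.34 and 7.52 in ALP and at 5.64, 6.32 and 6.77 in EILP, without overlap, and fell by 1.00 ± 0.24 (limma adjusted p 0.0235). In ILCp 1 to 5 it was at 7.74, 6.54, 6.77, 6.35 and 6.58, where ILCp 1 as deposited was above every ALP library. Batch 1 also held the lowest ALP and EILP libraries, ALP 1 and EILP 1, and batch removal ties these levels to each other. The ILCp minus ALP difference was −0.47 ± 0.28 (limma adjusted p 0.366). Without ILCp 1 it was −0.95, and Incenp passed (limma adjusted p 0.00465). Birc5 (survivin), another subunit, fell in both: by 0.81 ± 0.22 in EILP (limma adjusted p 0.042) and by 0.91 ± 0.25 in ILCp (limma adjusted p 0.0318). Cdca8 (borealin) was at 6.67, 7.21 and 7.87 in ALP, 6.34, 6.65 and 6.86 in EILP, and 6.14, 6.12, 6.65, 6.18 and 5.88 in ILCp. It fell by 1.01 ± 0.22 in ILCp versus ALP (limma adjusted p 0.0093), with −0.56 ± 0.20 in EILP versus ALP (limma adjusted p 0.129). Aurkb, the kinase of the complex, differed from ALP by −0.29 ± 0.17 in EILP (limma adjusted p 0.416) and fell by 0.66 ± 0.19 in ILCp (limma adjusted p 0.0475). Aurka, the Aurora kinase of the spindle poles, fell by 1.13 ± 0.26 in ILCp (limma adjusted p 0.012), while Plk1, the Polo kinase, stood at −0.60 ± 0.30 in EILP and −0.66 ± 0.34 in ILCp versus ALP and passed in neither. Plk1 in ILCp minus EILP was −0.06 ± 0.36, with an interval from −0.82 to 0.69.

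In the spindle checkpoint group, Bub1b had the smallest p of all members in EILP versus ALP. Bub1b (chr2:118598211-118641591, plus strand), which encodes BubR1, the checkpoint protein that restrains Cdc20, was at 7.30, 8.18 and 8.51 in ALP, at 5.71, 6.27 and 6.66 in EILP, and at 6.75, 5.76, 6.18, 6.51 and 6.78 in ILCp. All EILP and ILCp libraries were below all ALP libraries. Bub1b fell by 1.86 ± 0.28 in EILP, or 3.62-fold (limma adjusted p 0.000588), and by 1.65 ± 0.31 in ILCp, or 3.14-fold (limma adjusted p 0.0034). The other 3 genes of the group passed in neither comparison. Bub1, a checkpoint kinase at the kinetochore, was at −0.70 ± 0.23 in EILP versus ALP (limma adjusted p 0.0942). Ttk, the kinase that starts checkpoint signalling, was at −1.08 ± 0.38 (limma adjusted p 0.139), although its EILP libraries (4.00 to 5.02) were all below its ALP libraries (5.27 to 5.94). Ttk in ILCp ran from 3.38 in ILCp 5 to 5.99 in ILCp 3. Mad2l1, the inhibitor that binds Cdc20, was at 7.24, 7.54 and 8.30 in ALP and 6.28, 6.83 and 6.97 in EILP, also without overlap (−0.95 ± 0.28, limma adjusted p 0.0663), and at 8.21 in ILCp 1 against 6.73 to 7.25 in the other ILCp libraries. All 4 genes of the group had an ILCp minus EILP difference above 0, from 0.04 (Ttk) to 0.45 (Mad2l1), except that Ttk and Bub1 were below 0 after median centring, and none passed.

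In the anaphase promoting complex and separase group, Cdc20, the activator that directs the complex to securin and cyclin B, passed in both comparisons with ALP. It was at 7.54, 7.67 and 8.23 in ALP, 6.78, 7.01 and 7.24 in EILP, and 7.03, 6.52, 6.76, 6.37 and 6.81 in ILCp. ALP did not overlap either group, and Cdc20 fell by 0.76 ± 0.16 in EILP (limma adjusted p 0.00807) and by 1.06 ± 0.18 in ILCp (limma adjusted p 0.00145). Ube2c, the ubiquitin-conjugating enzyme of the complex, missed the threshold in ILCp versus ALP (−0.89 ± 0.27, limma adjusted p 0.054). So did Cdca3, a mitotic entry factor (−0.96 ± 0.32, limma adjusted p 0.081). Espl1, the separase that opens cohesin, was at −0.47 in ILCp 1 and between 3.93 and 4.60 in the other ILCp libraries, against 4.04 to 7.85 in ALP. Its ILCp minus ALP difference of −2.35 ± 1.02 did not pass (limma adjusted p 0.194) and was −0.43 without ILCp 1, and its EILP minus ALP difference was −0.14 ± 0.89, with an interval from −2.03 to 1.75.

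Centromere and kinetochore genes fell in ILCp and not in EILP by the test: 0 of 5 passed in EILP versus ALP and 2 of 5 in ILCp versus ALP. That pair of counts is not a test of a difference between EILP and ILCp, which for all 5 genes was below 0 and passed for none. Cenpa, the histone H3 variant that marks centromeres, was at 6.69, 7.48 and 7.96 in ALP, 6.18, 6.80 and 7.13 in EILP, and 6.69, 5.62, 6.41, 5.72 and 6.15 in ILCp, and fell by 1.29 ± 0.31 in ILCp versus ALP (limma adjusted p 0.0178). Ndc80, which binds microtubules at the kinetochore, was at 5.49, 6.32 and 6.92 in ALP, 5.12, 5.50 and 6.10 in EILP, and 5.42, 2.80, 4.40, 4.56 and 4.64 in ILCp, where ILCp 2 was far below the rest. It fell by 1.97 ± 0.44 in ILCp versus ALP (limma adjusted p 0.0109), and by 1.08 when ILCp 2 was left out (limma adjusted p 0.0433, the highest over fits without 1 library). Nuf2, the partner of Ndc80 in the same complex, was at −2.83 in ILCp 2 and from 3.62 to 4.79 in the other ILCp libraries, against 5.43 to 9.10 in ALP. Its ILCp minus ALP difference, −4.48 ± 1.35, missed the threshold (limma adjusted p 0.0541). Without ILCp 2 it was −1.29 and passed (limma adjusted p 0.0405). Cenpf, a late cell cycle kinetochore protein, was at −0.91 ± 0.34 in EILP and −1.19 ± 0.39 in ILCp versus ALP, and passed in neither.

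Cenpe, a kinesin that moves chromosomes to the middle of the spindle, had the difference from ALP nearest to 0 of all members in ILCp and the only one above 0 in EILP. It was at 4.63, 5.59 and 6.10 in ALP, 4.99, 5.68 and 6.07 in EILP, and 5.49, 5.38, 5.39, 5.04 and 5.80 in ILCp, and the groups overlapped throughout. Cenpe differed by 0.15 ± 0.29 in EILP (interval −0.47 to 0.77) and by −0.07 ± 0.33 in ILCp (interval −0.77 to 0.64) versus ALP. After median centring of the libraries, the second value was 0.06, so neither sign is firm.

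Of the 8 spindle motor and microtubule genes, 3 fell in EILP and 5 in ILCp versus ALP. Prc1, which bundles microtubules between the separating chromosomes, was at 7.45, 7.58 and 8.11 in ALP, 6.41, 6.94 and 7.04 in EILP, and 7.01, 7.03, 7.06, 6.80 and 7.08 in ILCp. No EILP or ILCp library reached the ALP range. Prc1 fell by 0.84 ± 0.15 in EILP (limma adjusted p 0.00331) and by 0.67 ± 0.18 in ILCp (limma adjusted p 0.0282). Nusap1, a microtubule-stabilising protein of the spindle, was at 7.45, 8.10 and 8.46 in ALP, 6.22, 6.96 and 7.39 in EILP, and 6.62, 6.21, 7.01, 6.41 and 6.66 in ILCp, again without overlap between ALP and the others. It fell by 1.11 ± 0.22 in EILP, or 2.15-fold (limma adjusted p 0.00533), and by 1.39 ± 0.25 in ILCp, or 2.61-fold (limma adjusted p 0.00204). Kif11, the kinesin that pushes spindle poles apart, fell by 1.15 ± 0.31 in EILP (limma adjusted p 0.044). In ILCp 1 Kif11 was at 7.29, inside the ALP range of 6.61 to 8.03, and the ILCp minus ALP difference was −0.83 ± 0.36 (limma adjusted p 0.19).

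Kif2c (chr4:117159639-117182639, minus strand), a kinesin that takes microtubules apart at centromeres, had the smallest ILCp versus EILP p of the 42 genes. It was at 5.62, 5.98 and 6.97 in ALP, at 5.25, 5.43 and 6.48 in EILP and at 4.51, 3.64, 4.81, 4.80 and 4.28 in ILCp. ALP and EILP overlapped, and all 5 ILCp libraries were below both. The ILCp minus EILP difference was −1.27 ± 0.37 (unadjusted p 0.00336, limma adjusted p 0.074), and Kif2c fell by 1.66 ± 0.35 in ILCp versus ALP, or 3.15-fold (limma adjusted p 0.00769). Tpx2, which activates Aurka on the spindle, fell by 1.48 ± 0.32 in ILCp versus ALP (limma adjusted p 0.00828), and Hmmr, a spindle pole protein, by 1.31 ± 0.32 (limma adjusted p 0.0164). Kif20a and Kif23, kinesins of the central spindle, differed from ALP by −1.03 ± 0.31 and −1.19 ± 0.42 in ILCp, and neither passed (limma adjusted p 0.0506 and 0.0974).

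**Figure D3:**
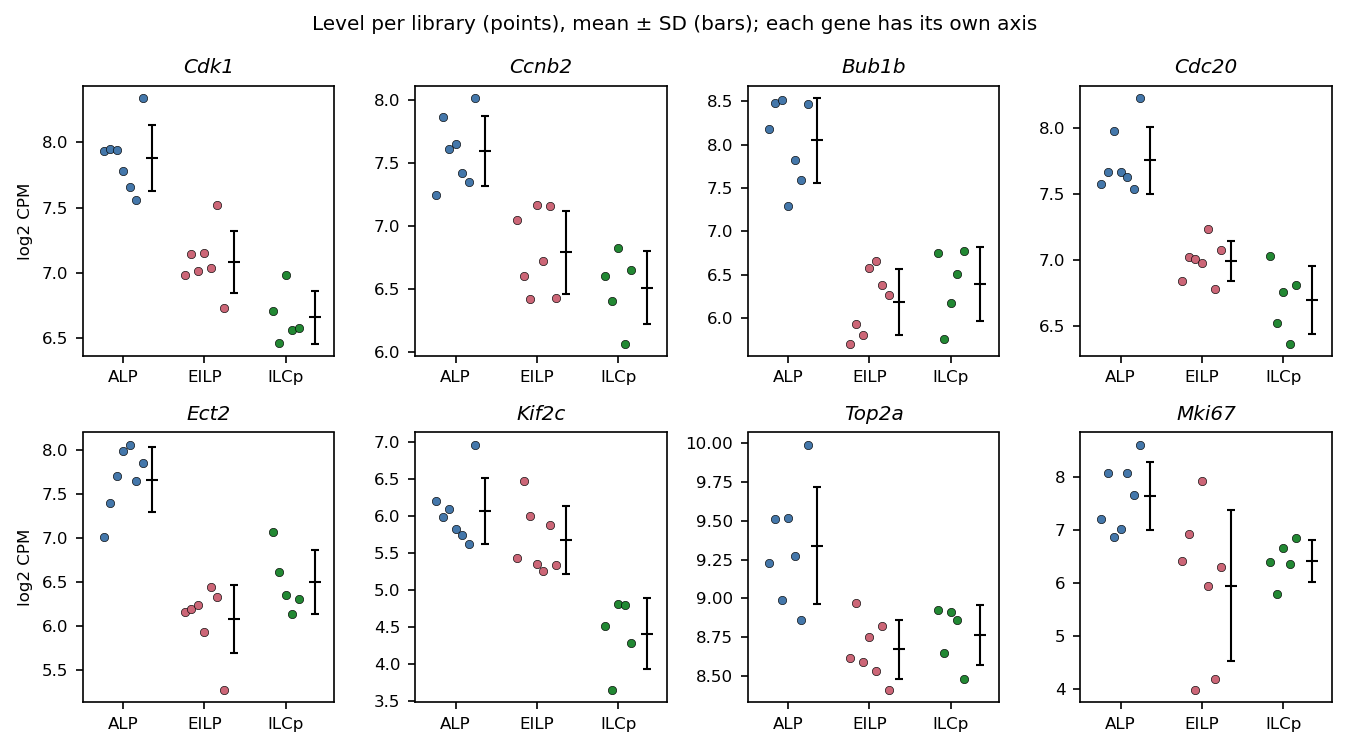
Level of 8 members in log2 CPM, 1 point per library in ALP (7), EILP (7) and ILCp (5), with bars for mean ± SD; each gene has its own axis. ALP lies above both other groups for Cdk1, Ccnb2, Bub1b and Cdc20, every ILCp point of Kif2c lies below every EILP point, and Mki67 spreads most within EILP.

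Ect2 led the cytokinesis group. Ect2 (chr3:27097222-27153878, minus strand), the exchange factor that turns on RhoA to build the contractile ring, was at 7.01, 7.70 and 8.06 in ALP and at 5.27, 6.19 and 6.45 in EILP, without overlap. In ILCp 1 to 5 it was at 7.07, 6.62, 6.35, 6.14 and 6.31, where ILCp 1 was just inside the ALP range. Ect2 fell by 1.58 ± 0.24 in EILP, or 3.00-fold (limma adjusted p 0.000814), and by 1.17 ± 0.28 in ILCp (limma adjusted p 0.0157). Racgap1, which recruits Ect2 to the midzone, was at 7.45 to 8.38 in ALP and 5.70 to 7.29 in EILP, but missed the threshold (−1.10 ± 0.34, limma adjusted p 0.082). Anln (anillin), a scaffold of the ring, was at −0.79 ± 0.29 in EILP (limma adjusted p 0.146) and −0.55 ± 0.33 in ILCp versus ALP. The ILCp minus EILP difference of all 3 genes was above 0, from 0.09 to 0.42, and none passed.

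Chromosome structure genes fell in EILP (3 of 6) and did not pass in ILCp versus ALP (0 of 6), although all 6 ILCp differences were below 0, with a median of −0.65. Top2a (chr11:98992943-99024189, minus strand), the topoisomerase that untangles sister chromatids, was at 8.86, 9.27 and 9.99 in ALP, 8.41, 8.62 and 8.97 in EILP, and 8.93, 8.65, 8.91, 8.86 and 8.48 in ILCp. The highest EILP and ILCp libraries reached the lower end of ALP. Top2a fell by 0.67 ± 0.17 in EILP (limma adjusted p 0.0343), and its ILCp minus ALP difference was −0.57 ± 0.20 (interval −0.99 to −0.15, limma adjusted p 0.0934). Smc4 and Ncapg, condensin subunits that compact chromosomes, fell by 0.88 ± 0.18 (limma adjusted p 0.00823) and 1.10 ± 0.24 (limma adjusted p 0.0113) in EILP. In ILCp they were at −0.63 ± 0.21 and −0.76 ± 0.27 versus ALP and did not pass. Ncaph, a further condensin subunit, was at −0.80 ± 0.23 in EILP versus ALP (limma adjusted p 0.0671), and Smc2, the partner of Smc4, at −0.36 ± 0.21 in EILP and −0.31 ± 0.24 in ILCp. All 6 genes had an ILCp minus EILP difference above 0, from 0.05 (Smc2, which was below 0 after median centring) to 0.46, and none passed.

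Mki67 (chr7:135689784-135716361, minus strand), the Ki-67 protein that coats mitotic chromosomes and a common marker of dividing cells, was at 6.87, 7.65 and 8.60 in ALP and at 3.97, 6.30 and 7.92 in EILP. EILP 3 and EILP 6 were low and EILP 2 and EILP 4 were inside the ALP range, so the groups overlapped. In ILCp 1 to 5 it was at 6.39, 5.78, 6.66, 6.35 and 6.84, all below the lowest ALP library. Mki67 passed in no comparison: the difference was −1.69 ± 0.59 in EILP (interval −2.95 to −0.43, limma adjusted p 0.131) and −1.23 ± 0.68 in ILCp (interval −2.67 to 0.21, limma adjusted p 0.327) versus ALP. Within batches the EILP minus ALP value ran from −0.55 in batch 2 to −2.87 in batch 5.

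**Figure D4:**
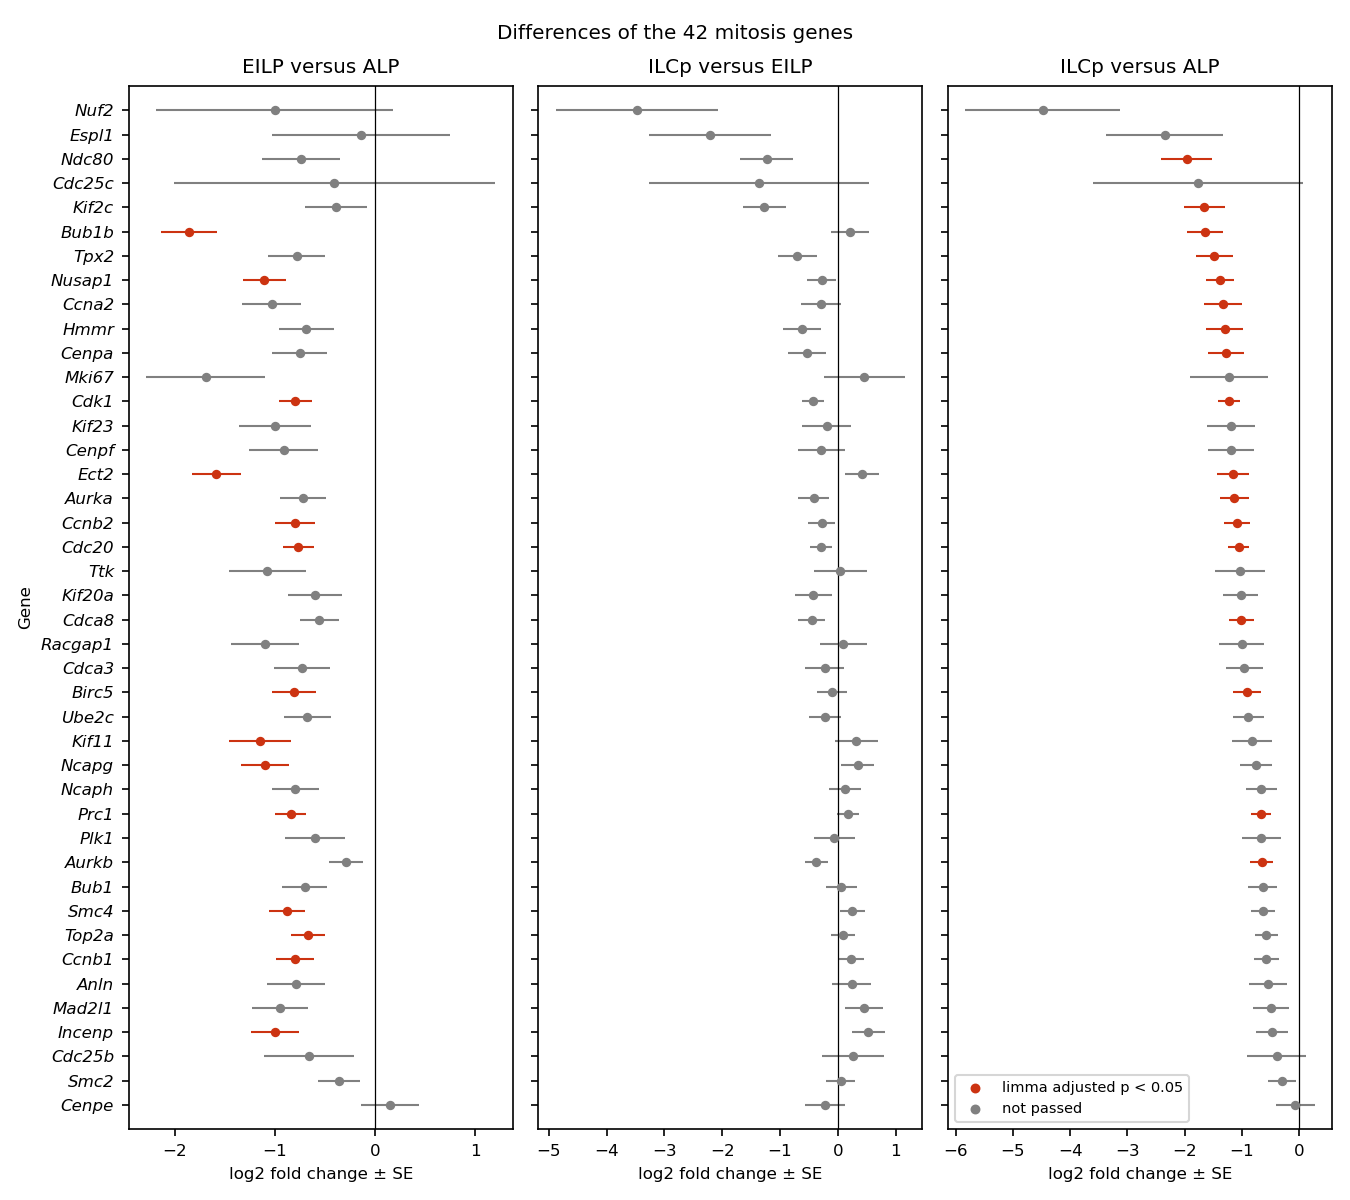
Log2 fold change with its SE for each of the 42 genes in the 3 comparisons, ordered by the ILCp versus ALP value; red marks a limma adjusted p below 0.05. In both comparisons with ALP nearly all points lie left of 0, with 14 and 17 red, and in ILCp versus EILP none is red.

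How far a call rested on 1 library was checked by leaving each of the 19 out. In EILP versus ALP the calls of Cdk1, Bub1b, Cdc20, Nusap1, Prc1, Ect2 and Smc4 stood in all 19 fits. Ncapg lost its call without EILP 2 (limma adjusted p 0.0535). Ccnb1 lost it without ALP 4, EILP 1, EILP 2 or EILP 7 (highest limma adjusted p 0.0894), Incenp without any of ALP 2, ALP 4, EILP 1, EILP 2 and EILP 7 (0.0701), and Ccnb2 in 6 of 19 fits (0.102). Top2a was called in 7 of 19 fits, Kif11 in 4 and Birc5 in 2, so these 3 calls are marginal, with limma adjusted p up to 0.122, 0.151 and 0.141. The number of calls was 9 without ALP 2, ALP 4, EILP 1 or EILP 2 and 8 without EILP 7.

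In ILCp versus ALP the calls of Cdk1, Ccnb2, Bub1b, Cdc20, Ndc80 and Nusap1 stood in all 19 fits. Without ILCp 2, the library with the lowest members' median, 7 members were called. That library alone decided Aurka (limma adjusted p 0.0878 without it), Cdca8 (limma adjusted p 0.0511), Kif2c (limma adjusted p 0.0695) and Tpx2 (limma adjusted p 0.066). Ccna2 lost its call without ILCp 2, where it was at −0.73, or without ILCp 5 (highest limma adjusted p 0.168), Cenpa and Ect2 without ALP 4 or ILCp 2 (0.14 and 0.0963), and Hmmr without ALP 4, ILCp 1 or ILCp 2 (0.0655). Prc1 was called in 14 of 19 fits, Birc5 in 10 and Aurkb in 4.

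Leaving out a library also added calls. In EILP versus ALP, 6 further members passed in at least 1 fit: Ccna2 (without ALP 4 or ILCp 2), Aurka and Ncaph (without ALP 6 or EILP 6), Ttk (without ILCp 3), Mad2l1 (without ILCp 1) and Racgap1 (without ILCp 2). In ILCp versus ALP there were 11. Incenp and Mad2l1 passed without ILCp 1, Cdca3 without ALP 1 or ILCp 1, and Ube2c without ALP 6, ILCp 1 or ILCp 5. Without ILCp 1, Mad2l1 was at −0.99 (limma adjusted p 0.0288). Nuf2 passed without EILP 2, ILCp 1 or ILCp 2, Ttk without ILCp 3, Smc4 without ALP 1 or ILCp 3, and Cenpf without ALP 5 or EILP 5. Ccnb1 passed without EILP 6, Kif23 without ALP 6, and Kif20a in 5 of 19 fits. In ILCp versus EILP, Kif2c passed without ALP 7 (limma adjusted p 0.0386).

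ILCp 2 and EILP 2 also had high sums in some markers of other cells. The sums are powers of 2 of levels after the batch removal, and not measured CPM. Summed over 12 matched erythroblast genes, the level was 42.4 to 1444 CPM in ILCp, highest in ILCp 2, 34.4 to 1225 in EILP and 2.71 to 283 in ALP. Neutrophil progenitor genes summed to 484 to 3236 CPM in ALP, 1604 to 43568 in EILP, highest in EILP 2, and 87.5 to 1532 in ILCp. Bone stroma genes summed to 0.77 to 9.02 CPM in ALP, 3.08 to 1421 in EILP and 0.23 to 7.03 in ILCp. B cell progenitor genes summed to 90.4 to 274 CPM in ALP, 53.0 to 96.3 in EILP, where EILP 6 was above ALP 7, and 27.5 to 57.8 in ILCp. Plasma and mast cell genes summed to 25.4 to 732 CPM in ALP, 341 to 4988 in EILP, highest in EILP 7, and 126 to 686 in ILCp. Of their 4 genes, Cpa3, a mast cell protease, rose by 9.35 in EILP and by 7.16 in ILCp versus ALP (limma adjusted p 0.000253 and 0.00531). Mzb1, a chaperone of plasma cells, fell by 7.18 and by 8.25 (limma adjusted p 0.000632 and 0.000472). Mcpt8 and Prss34, the rest of the list, passed in neither comparison with ALP. Mean Mcpt8 was 2.70 in ALP, 5.94 in EILP and 3.54 in ILCp. Mean Prss34 was lower in EILP, at −1.21 against 3.28 in ALP, and was 5.08 in ILCp. T cell genes summed to at most 38.6 CPM in any library. The number of erythroblast genes above 0 log2 CPM was 1 to 9 of 12 in ALP, 3 to 12 in EILP and 6 to 12 in ILCp. For neutrophil progenitor genes it was 3 to 7, 6 to 7 and 2 to 5 of 7, and for bone stroma genes 0 to 2, 1 to 5 and 0 to 1 of 6. Left without EILP 2, the members' median in EILP versus ALP was −0.82, and without ILCp 2 it was −0.79 in ILCp versus ALP. The part of these cells in the fall of the mitosis genes was not tested.

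Other genes of the same pathway were mostly lower too, with medians nearer to 0 than those of the 42 in both comparisons with ALP. These lists and the 42 were chosen with earlier results of these data known, so the order of their medians is a description. Of 27 other kinetochore and checkpoint genes, 3 fell in EILP versus ALP (11.1%, against 2.79% of all genes). In ILCp versus EILP 1 fell (3.70%, against 1.46%) and in ILCp versus ALP 5 (18.5%, against 4.39%). None rose, against 2.25%, 1.76% and 3.86% of all genes, and the medians were −0.59, −0.35 and −0.82. Hjurp, the chaperone that loads Cenpa at centromeres, was at 8.12, 8.68 and 8.90 in ALP and 6.97, 7.58 and 7.90 in EILP, and 7.91, 8.36 and 8.62 in ILCp (lowest, median, highest). It fell by 1.13 in EILP versus ALP, and its ILCp minus EILP difference of 0.82 missed the threshold (limma adjusted p 0.0545). Oip5, which prepares centromeres for that loading, had its low values in ILCp. ALP and EILP overlapped at 4.98 to 5.61 and 4.54 to 5.96, ILCp was at 3.48 to 4.51, and Oip5 fell by 1.36 in ILCp versus EILP (limma adjusted p 0.0425). Spc25, a subunit of the Ndc80 complex, fell by 1.33 in EILP versus ALP (limma adjusted p 0.00231), and Cenpm, a centromere protein, by 1.19 in ILCp versus ALP (limma adjusted p 0.0128).

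Of 24 other spindle and cytokinesis genes, 1 fell in EILP (4.17%, against 2.79% of all genes) and 6 in ILCp versus ALP (25%, against 4.39%). Between EILP and ILCp 0 passed the test (1.46% of all genes lower, 1.76% higher), and the medians were −0.75, −0.86 and −0.30. Stmn1, which destabilises microtubules and is shut off by mitotic kinases, was at 9.998, 10.43 and 10.85 in ALP, 9.05, 9.68 and 9.79 in EILP and 8.86, 9.10 and 9.38 in ILCp. It fell by 1.36 in ILCp versus ALP (limma adjusted p 0.000127), with no overlap, and by 0.87 in EILP (limma adjusted p 0.0026). Tuba1b, an alpha-tubulin of the spindle microtubules, fell by 0.90 in ILCp versus ALP (limma adjusted p 0.00306) and was at −0.56 in ILCp versus EILP (limma adjusted p 0.103). Kif22, a chromosome-arm kinesin, was at −0.81 in EILP versus ALP (limma adjusted p 0.0572). Of 24 other entry, exit and condensin genes (of 25 listed), 1 fell in EILP (4.17%) and 5 in ILCp versus ALP (20.8%), against the same shares of all genes. Between EILP and ILCp 0 passed the test, and the medians were −0.37, −0.59 and −0.30. Pbk, a mitotic kinase, fell by 1.21 in EILP and by 1.56 in ILCp versus ALP (limma adjusted p 0.0142 and 0.00476). Cdca5 (sororin), which protects the cohesion of sister chromatids, fell by 1.63 in ILCp versus ALP (limma adjusted p 0.00835). Ncaph2, a condensin II subunit, was at −0.48 in EILP versus ALP (limma adjusted p 0.0773), and Cks2, a small partner of Cdk1, at −0.63 in ILCp versus EILP (limma adjusted p 0.187).

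**Figure D5:**
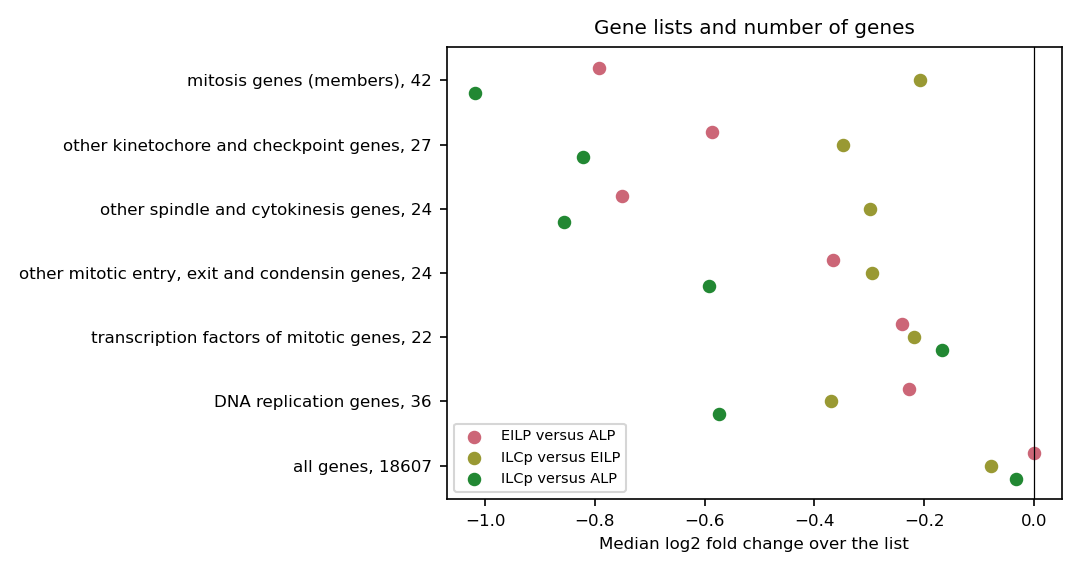
Median log2 fold change over the mitosis genes, 5 lists of other cell cycle genes and all genes in the 3 comparisons, with the number of genes beside each name. Of these, the mitosis genes have the lowest medians in both comparisons with ALP (−0.79 and −1.02), and DNA replication genes lie nearer to 0 (−0.23 and −0.57). The lists were chosen with earlier results of these data known.

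DNA replication genes act before mitosis. Of 36, 1 fell in EILP versus ALP (2.78%, against 2.79% of all genes), a share near that of all genes. In ILCp versus EILP 3 fell (8.33%, against 1.46%) and in ILCp versus ALP 13 (36.1%, against 4.39%). None rose, and the medians were −0.23, −0.37 and −0.57. The difference was below 0 in 33 of the 36 in EILP versus ALP (91.7%, against 49.97% of all genes). It was below 0 in 32 in ILCp versus EILP (88.9%, against 53.8%) and in 36 in ILCp versus ALP (100%, against 52.1%). Mcm5, a subunit of the replicative helicase, was at 9.09 to 9.55 in ALP, 8.99 to 9.25 in EILP and 8.43 to 8.80 in ILCp, where EILP overlapped ALP and ILCp lay below both. Dut, which keeps uracil out of DNA, was at 7.33 to 7.87 in ALP, 7.34 to 7.85 in EILP and 6.04 to 6.87 in ILCp, and fell by 1.09 in ILCp versus EILP (limma adjusted p 0.00709). Mcm5 fell by 0.64 and its helicase partner Mcm7 by 0.86 in ILCp versus ALP (limma adjusted p 0.00221 and 0.00194). Gins1 and Gins2 belong to the complex that activates this helicase: Gins1 fell by 1.51 in ILCp versus EILP (limma adjusted p 0.0217), and Gins2 by 0.85 in EILP versus ALP (limma adjusted p 0.042). Pcna, the sliding clamp of DNA polymerases, was at −0.38 in EILP versus ALP (limma adjusted p 0.08). Whether the 2 lists differed in their course was not tested, and the medians are a description.

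Transcription factors of mitotic genes were mixed. Of 22, 1 fell in EILP versus ALP (4.55%, against 2.79% of all genes). In ILCp versus EILP 1 fell and 1 rose, against 1.46% of all genes lower and 1.76% higher. In ILCp versus ALP 4 fell (18.2%) and 1 rose, against 4.39% lower and 3.86% higher. The medians were −0.24, −0.22 and −0.17. E2f1, an activator of cell cycle genes, was at 6.28 to 6.47 in ALP, 6.03 to 6.47 in EILP and 5.14 to 5.75 in ILCp, and fell by 0.86 in ILCp versus EILP (limma adjusted p 0.0178). Rbl2 (p130), the pocket protein of the DREAM repressor complex, was at 5.81 to 7.04 in ALP, 5.97 to 7.51 in EILP and 7.48 to 8.75 in ILCp. It rose by 1.38 in ILCp versus EILP (limma adjusted p 0.0387) and by 1.70 in ILCp versus ALP (limma adjusted p 0.00394). Rbl1 (p107), a related protein that peaks in cycling cells, fell by 0.75 in EILP and by 0.96 in ILCp versus ALP (limma adjusted p 0.00758 and 0.00252). E2f8, a repressor among the E2F factors, was at −0.93 in EILP versus ALP and did not pass (limma adjusted p 0.206). Foxm1, the activator of late cell cycle genes, was at 4.34 to 9.22 in ALP and −3.17 to 3.90 in ILCp, and missed the threshold in ILCp versus ALP (−4.36 ± 1.30, limma adjusted p 0.0517).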

How the data were processed

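Per the labels' protocols, RNA from sorted cells was purified with RNeasy plus micro columns and libraries were made with a SMARTer Ultra Low kit (v3) and Nextera XT, which do not mark strand. The submitters' processing notes name bcl2fastq 1.8.4, STAR 2.4.0h, edgeR, limma and mm10. The counter is not given in the sources used here, nor is the annotation. The authors deposited log2 values for 18607 genes in 19 libraries (9 empty columns were left out). Their powers of 2 summed to 908573 to 1035204 per library, as log2 CPM would, and without total counts no counting interval could be given. From the values, batch differences had been removed before deposit: no batch coefficient exceeded 1.15e-08 in a model with the groups, while batch alone gave up to 5.14. No header or label records that step. It leaves fold changes from a model with batch as they are and makes SDs within groups too small.

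All genes were fitted with limma 3.58.1 in R 4.3.3 (mean-variance trend, two-sided, groups plus batch, 12 residual degrees of freedom), with Benjamini-Hochberg adjustment over all genes at 0.05. Intervals are 95%. EILP 3 and EILP 4 inform the errors and not the fold changes. The procedure was tested on simulated data. Members and lists were chosen with earlier results of these data known. The rule for named genes took Mki67, Top2a and Cdk1, the members with the smallest and largest p of each role group and comparison, and the 2 genes with the smallest p of each further list and comparison. The other members named, and Foxm1, were added after their values were seen. Promoters were read from RefSeq windows (GRCm38.p6) and gene positions from GENCODE (GRCm38). Alternatives changed the batch term, the libraries, the centring, the trend, the genes tested and the threshold.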

Additional observations from a re-analysis of the deposited data

Results flagged for a closer look

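In 8 of 129 groups of values tested, a single library stood apart by Dixon's criterion, which compares its gap to the nearest library with the range of the group. Chance alone gives about 1 in 20 where values are independent. Batch removal ties the libraries of a batch to each other, so that rate is not strict here, and a flag does not single out 1 library. For Nuf2, the lowest value was in ILCp 2, while ALP 2 and EILP 2 of the same batch were the highest of their groups. For Espl1, the lowest was in ILCp 1, while ALP 1 and EILP 1 were the highest of theirs. Each of the 8 was a lowest value, and no library had more than 1. In ALP, Cenpf was at 4.79 in ALP 5 against 5.56 in the next library (ratio 0.57), and Ncaph was at 6.28 in ALP 6 against 6.89 (ratio 0.597). In EILP, Mad2l1 was at 6.28 in EILP 1 against 6.73 (ratio 0.645), Cenpf at 3.69 in EILP 5 against 4.76 (ratio 0.705), and Smc4 at 6.41 in EILP 7 against 6.90 (ratio 0.597). In ILCp, Espl1 was at −0.47 in ILCp 1 against 3.93 (ratio 0.867), Nuf2 at −2.83 in ILCp 2 against 3.62 (ratio 0.846), and Prc1 at 6.80 in ILCp 4 against 7.01 (ratio 0.738). The Prc1 gap was small on the log2 scale, since its other ILCp libraries lay close together.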

How the results depend on the processing

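The number of members lower in EILP versus ALP (14) was 31 with no batch term, 8 with no mean-variance trend, 7 at an adjusted p below 0.01, 5 with each library centred on its median (median −0.58, where the median of all genes moved from 0 to 0.22), 5 without batch 4 and 0 in batch 5 alone. The number in ILCp versus ALP (17) was 33 with no batch term and 8 with only the groups compared, at an adjusted p below 0.01, without batch 4 or without the Plzf-cre-GFP libraries. In ILCp versus EILP (0) it was 4 with no batch term and 1 with genes above the median level only. No member was called higher under any of these settings. Shares of all genes called under them are not given, so a change in count is not by itself a result about the members. Fits with no batch term had 16 residual degrees of freedom in place of 12. Because batch had been removed before deposit, their p-values are too small and their counts too high. With the replicate number as a block in place of batch, 23, 1 and 23 members were called lower in EILP versus ALP, ILCp versus EILP and ILCp versus ALP. These fits also leave out the removed batch, so the same limit holds. Whether the numbers pair the libraries could not be told. Of 17 same-number pairs, 1 had a correlation above 0.1 (range −0.642 to 0.117). These values cannot decide it, since removing batch before deposit pushes libraries of one batch to opposite sides of their group means. Without 1 library, the counts were 8 to 15, 0 to 1 (Kif2c, without ALP 7) and 7 to 19, and the medians −0.901 to −0.696, −0.263 to 0.104 and −1.15 to −0.79. The median of ILCp versus EILP was above 0 only without ILCp 2. The causes were not tested.

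Some differences that did not pass changed sign. Espl1 was 0.078 (EILP versus ALP) and Cenpe 0.058 (ILCp versus ALP) with median centring, Cenpe was −0.36 in batch 5 alone (EILP versus ALP) and 0.026 with only the groups compared (ILCp versus ALP). In ILCp versus EILP, Ttk, Smc2 and Mki67 were −0.12, −0.038 and −0.036 with only the groups compared, Ttk and Smc2 −0.046 and −0.042 with median centring, and Cdc25b, Ttk and Racgap1 −0.29, −0.47 and −0.29 without batch 4. Over the fits without 1 library, the range crossed 0 for 3 in EILP versus ALP, Cdc25c (−2.19 to 0.92), Espl1 (−0.69 to 0.53) and Cenpe (−0.0067 to 0.35); 17 in ILCp versus EILP, Ccna2 (−0.52 to 0.24), Cdc25b (−0.055 to 0.69), Cdc25c (−3.03 to 0.49), Plk1 (−0.21 to 0.088), Bub1 (−0.19 to 0.18), Bub1b (−0.00083 to 0.52), Ttk (−0.27 to 0.33), Mad2l1 (−0.063 to 0.61), Ube2c (−0.52 to 0.097), Cdca3 (−0.69 to 0.19), Cenpf (−0.92 to 0.044), Kif11 (−0.082 to 0.53), Kif23 (−0.48 to 0.11), Racgap1 (−0.32 to 0.72), Anln (−0.0041 to 0.45), Smc2 (−0.092 to 0.14) and Ncaph (−0.11 to 0.35); 3 in ILCp versus ALP, Cdc25b (−0.55 to 0.079), Cdc25c (−3.26 to 0.30) and Cenpe (−0.26 to 0.068). A pseudocount does not apply to deposited logs, and batch 5 alone gives no value for ILCp. Batch 5 alone and the fit without batch 4 were chosen after seeing the data. Unknown depth limits what can be said of members with low levels, such as Cdc25c.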
